A study of Mus musculus with 3 samples.

Results

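Il7r, Klf2 and Btg1 were examined in bone marrow RNA of castrated C57BL/6 mice given testosterone, each compared with a matched placebo mouse on a 2-colour spotted array. All mice, placebo animals included, had been castrated at 7 weeks of age. Pellets with testosterone or placebo stayed in place for 4 weeks, and marrow was taken at 17 weeks of age. The testosterone pellet held 12.5 mg and released it over 60 days. Arrays T1, T2 and T3 each held 1 pair (n = 3 pairs), with the testosterone RNA in Cy5 on T1 and T3 and in Cy3 on T2. The members were taken as spots that had a value on all 3 arrays and whose annotation gave exactly 1 gene, that gene being Il7r, Klf2 or Btg1. These were 5 spots (Il7r 1, Klf2 1, Btg1 3) of 6039 spots tested, for 3 of 3462 genes, and no other spot on the array was annotated to them alone. The 3 genes were chosen by their ratios in this same comparison, so those ratios are given as a description and are not tested. The RNA came from pulverized bone and the labels call the tissue bone marrow, a mixture of many cell types, so that fewer cells of a type and less RNA per cell cannot be told apart. The files hold ratios and no levels, so the labelled tissue could not be checked against the level of its markers.

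The interleukin-7 receptor alpha chain, which Il7r encodes, pairs with the common gamma chain and signals through Jak kinases and Stat5 to keep lymphocyte precursors alive and dividing. In mice both B-cell precursors of the marrow and T-cell precursors depend on it. Klf2 encodes a zinc finger transcription factor that holds lymphocytes at rest and turns on the exit receptor S1pr1, and it is also prominent in endothelium. Btg1 encodes an antiproliferative protein that brings deadenylases to messenger RNA and is abundant in resting lymphocytes.

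The stretches of 250 bases before the start of each gene are shown because the genes were described together and their upstream sequences differ. They are from RefSeq promoters of build GRCm38.p6, in which all 3 genes were found: Il7r at chr15:9529877-9530126 on the minus strand, Klf2 at chr8:72318812-72319061 on the plus strand and Btg1 at chr10:96616751-96617000 on the plus strand. Each runs 5′ to 3′ toward the start, and capitals mark matches on either strand to 6 short motifs.
Il7r: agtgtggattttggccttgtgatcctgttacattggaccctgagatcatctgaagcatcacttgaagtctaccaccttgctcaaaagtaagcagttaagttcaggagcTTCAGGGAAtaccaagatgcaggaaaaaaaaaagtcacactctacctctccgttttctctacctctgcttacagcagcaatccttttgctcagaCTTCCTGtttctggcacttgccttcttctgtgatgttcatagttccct
Klf2: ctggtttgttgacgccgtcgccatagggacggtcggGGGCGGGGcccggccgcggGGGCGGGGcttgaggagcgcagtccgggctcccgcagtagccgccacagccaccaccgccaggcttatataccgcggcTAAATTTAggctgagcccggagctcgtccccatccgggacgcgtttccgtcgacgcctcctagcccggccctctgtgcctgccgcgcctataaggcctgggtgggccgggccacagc
Btg1: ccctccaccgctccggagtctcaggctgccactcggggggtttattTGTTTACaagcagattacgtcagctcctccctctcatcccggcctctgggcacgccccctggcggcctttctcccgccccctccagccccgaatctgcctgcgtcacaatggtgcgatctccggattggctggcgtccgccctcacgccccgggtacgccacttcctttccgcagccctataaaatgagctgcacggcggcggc

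The motifs were chosen with these sequences in view, and a match is a description of letters only. The Ets pattern CTTCCTG was found once before Il7r, 48 to 42 bases before the start, and in 10.8% of 32851 windows of the same length. It is longer than the Ets core itself, TTCC or GGAA, whose letters also occurred unmarked in all 3 stretches. The Stat5 pattern TTCNNNGAA also matched once before Il7r (7.02% of windows). Before Klf2, the Klf and Sp pattern GGGCGGGG matched 2 times (16.1% of windows) and the Mef2 core TAAATTTA once (0.502% of windows). Before Btg1, the forkhead pattern TGTTTAC matched once, 204 to 198 bases before the start (3.17% of windows). The androgen receptor hexamer AGAACA, present in 16.1% of windows, had no match in the 3 stretches, and no matches overlapped. GC content was 44.0% for Il7r, 71.2% for Klf2 and 65.2% for Btg1.

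Ratios are read as log2 of testosterone over placebo. This direction is likely, because the design text calls testosterone the experimental channel, but it is not settled, and base 2 is an inference from how far the values reach. Of all spots, 68 passed as higher and 103 as lower by limma with Benjamini-Hochberg adjustment (adjusted p below 0.05). Higher spots made up 39.8% of the 171 that passed. Their share was 5.36% of 56 once array medians were set to 0 and 69.6% of 670 once the arrays were scaled as well. With 1 value per gene, 58 genes passed as higher and 112 as lower. That total of 170 became 623 without T1, 35 without T2, 33 without T3 and 0 with the sign of T2 turned, where 19 genes had an unadjusted p under 0.05. The arrays correlated over spots with Pearson's r of 0.42 (T1 and T2), 0.49 (T1 and T3) and 0.73 (T2 and T3).

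Il7r had by far the lowest ratios of the 3 genes. Its single spot stood at -2.08 on T1, -2.34 on T2 and -1.09 on T3. It was lower with testosterone in every pair, by 4.23-fold, 5.05-fold and 2.13-fold, and T3 stood apart from the other arrays. The mean was -1.84 ± 0.66 (SD, n = 3), or 3.57-fold lower. A lower mean ratio was found for 6 of 3462 genes, and for 96 if the sign of T2 is turned. On single arrays 9 genes were lower than Il7r on T1, 3 on T2 and 16 on T3. Its spread was wide, since 98.5% of genes had a smaller SD than Il7r, against a median SD of 0.17 over all genes. In units of the SD over all spots of the array, Il7r stood at -6.56 on T1, -4.75 on T2 and -3.37 on T3.

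Klf2 had a smaller and very even ratio. Its single spot stood at -0.53 on T1, -0.65 on T2 and -0.66 on T3. All 3 pairs were lower with testosterone within a range of 0.13, by 1.44-fold, 1.57-fold and 1.58-fold, and the mean was -0.61 ± 0.08 (SD, n = 3), or 1.53-fold lower. The SD was smaller than that of Klf2 for 13.9% of genes. The ratio lay in the lower tail of each array rather than at its end: 132 genes were lower on T1, 169 on T2 and 52 on T3. In units of the SD over all spots of the array, Klf2 stood at -1.63 on T1, -1.32 on T2 and -2.03 on T3.

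Btg1 was read by 3 spots, and every spot was below 0 on every array. The lowest spot had -0.92 on T1, -0.81 on T2 and -0.54 on T3 (mean -0.76 ± 0.19, SD, n = 3). The second, from the same cDNA accession, had -0.76, -0.71 and -0.47 (mean -0.65 ± 0.15). The third, from another accession, had -0.80, -0.46 and -0.35 (mean -0.54 ± 0.24). In all 3 spots T1 was lowest and T3 highest. The same-accession spots differed by 0.16, 0.11 and 0.07 across T1, T2 and T3. The median over 481 such spot pairs of all genes was 0.07, 0.12 and 0.11, so their distance was near or under the usual one on T2 and T3 and above it on T1. The spot of the other accession lay above their mean by 0.03 on T1, 0.30 on T2 and 0.16 on T3.

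Averaged over its spots, Btg1 stood at -0.83 on T1, -0.66 on T2 and -0.45 on T3. Every pair was lower with testosterone, by 1.77-fold, 1.58-fold and 1.37-fold. The mean was -0.65 ± 0.19 (SD, n = 3), 1.57-fold lower, and 58 genes had a lower mean. With the sign of T2 turned, 179 genes were lower than Btg1 and 239 lower than Klf2, against 68 for Klf2 as deposited.

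**Figure D1:**
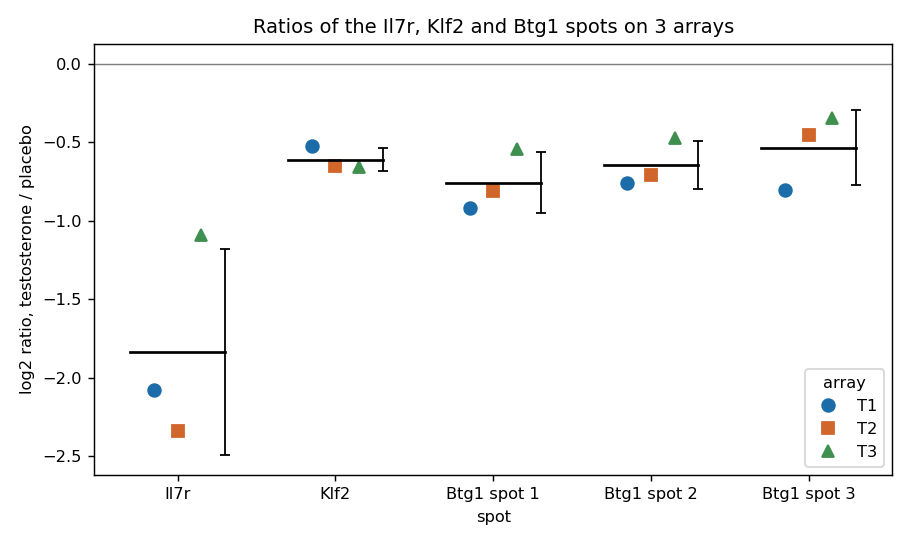
Log2 ratio of testosterone to placebo (vertical axis) for each of the 5 spots of Il7r, Klf2 and Btg1 (horizontal axis), with 1 point per array; lines are means and bars are 1 SD over the 3 arrays. All points lie below 0, with Il7r between -2.34 and -1.09 and the Klf2 points within a range of 0.13.

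The order of the mean ratios was Il7r, Btg1, Klf2. Il7r lay below Btg1 by 1.25, 1.68 and 0.64 on T1, T2 and T3 and below Klf2 by 1.56, 1.69 and 0.43. Il7r was therefore the lowest on each array, with the smallest gap on T3. Btg1 minus Klf2 was -0.30 (T1), -0.01 (T2) and 0.20 (T3), a mean of -0.04 ± 0.25 (SD, n = 3). Btg1 and Klf2 thus did not differ beyond their spread, and which was lower changed between pairs. On T3 Il7r and Btg1 had their weakest ratio, while Klf2 had its lowest there. By limma 4 of the 5 spots passed as lower, the third Btg1 spot being the exception, where 1.71% of all spots did. This count follows from how the genes were chosen, and nothing is read from it.

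**Figure D2:**
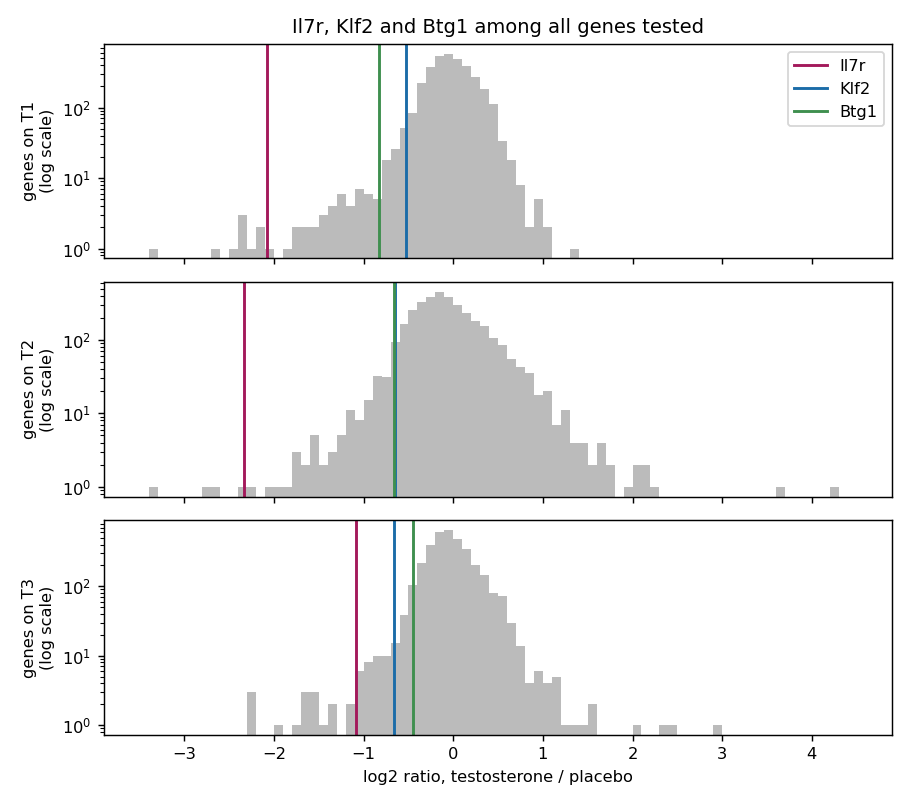
Number of genes (vertical axis, log scale) at each log2 ratio of testosterone to placebo (horizontal axis, bins of 0.1) on T1, T2 and T3, over 3462 genes, with vertical lines at Il7r, Klf2 and Btg1. Il7r lies at the far left end of each array, whereas Klf2 and Btg1 lie on the left shoulder and nearly coincide on T2.

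Several transcription factors known to act on Il7r were lower with testosterone. Of 16 listed regulators 8 were measured, of which 4 passed as lower, 0 as higher and 4 did not pass, where 3.24% of all genes passed as lower and 1.68% as higher. Their median ratio was -0.56 against -0.07 over all genes. The list was written with earlier results of these data known, and the comparison describes it and is no test of it. The list does not separate factors that activate Il7r from factors that repress it. Foxo1, a forkhead factor that activates both Il7r and Klf2 in lymphocytes, stood at -1.26 on T1, -1.40 on T2 and -1.01 on T3. It was 2.33-fold lower (-1.22 ± 0.19, SD, n = 3; adjusted p = 0.00127 by limma), and its 2 spots agreed at -1.25 and -1.20. Foxo1 kept its call without any single array.

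Tcf3, which encodes the E proteins that start B-cell development, stood at -1.28, -0.97 and -0.83, 2.04-fold lower (-1.03 ± 0.23; adjusted p = 0.00333), also without any single array. Foxp1, a forkhead factor of B-cell development and of resting T cells, stood at -1.16, -0.80 and -0.91, 1.95-fold lower (-0.96 ± 0.18; adjusted p = 0.00333), with adjusted p = 0.0581 without T3. Ets1, a lymphoid Ets factor, stood at -0.78, -0.99 and -0.55, 1.71-fold lower (-0.77 ± 0.22; adjusted p = 0.0144), with adjusted p = 0.116 without T2 and 0.0701 without T3. As in Il7r and Btg1, the ratio of Foxo1, Tcf3 and Ets1 was closest to 0 on T3.

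The other measured regulators did not pass. Gabpa, the Ets factor bound at the Il7r promoter, had -0.34 ± 0.17 (adjusted p = 0.0965), and its partner Gabpb1 had -0.29 ± 0.05. The glucocorticoid receptor Nr3c1 had -0.13 ± 0.04 and Runx1, a factor of blood stem cells and lymphocytes, 0.02 ± 0.14. The list's count of 4 was 5 without T1, 3 without T2, 2 without T3 and 0 with the sign of T2 turned.

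Downstream of the receptor, a single gene passed. Of 32 listed genes of interleukin-7 receptor signalling 12 were measured, of which 1 passed as lower, Foxo1, which this pathway restrains, and 11 did not pass (median -0.07, the same as over all genes). Over all genes 3.24% passed as lower. Jak1, the kinase bound by the receptor chain, had ratios of -0.01, -0.39 and -0.20 over its 5 spots (-0.20 ± 0.19; adjusted p = 0.27). The survival factors Bcl2 and Mcl1 had -0.05 ± 0.11 and -0.17 ± 0.26, and the cyclin Ccnd3 had -0.09 ± 0.04. Akt1, a kinase that moves Foxo1 out of the nucleus, had -0.34, -0.94 and -0.40 (-0.56 ± 0.33; adjusted p = 0.0555). It passed without T1 (adjusted p = 0.001), after centring and scaling (0.0387) and with a dye term (0.027). Akt1 did not pass without T2 (adjusted p = 0.234) or without T3 (0.273). Of 37 listed genes of the cytokine receptor family 6 were measured, and 0 passed by limma in either direction, with 1 at an unadjusted p under 0.05 (28.1% of all genes had one). That gene was the growth hormone receptor Ghr (0.85 ± 0.60, adjusted p = 0.053). Ghr passed as higher without T1 (adjusted p = 1.5e-07), after scaling (0.044) and with a dye term (0.0327). It did not pass without T2 (adjusted p = 0.263) or without T3 (0.273). Among the others, Crlf3 had -0.22 ± 0.15 and the signal chain Il6st 0.09 ± 0.07. Crlf3 was the lowest of the 6, far above Il7r at -1.84.

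Among genes known to control Klf2, 8 of 17 listed were measured. Of these 2 passed as lower (3.24% of all genes did), 0 as higher and 6 did not pass (median -0.22). The 2 lower genes were Foxo1 and Mef2c, a factor that activates Klf2 and is needed in B cells. Mef2c stood at -0.70 on T1, -0.49 on T2 and -0.34 on T3 (-0.51 ± 0.18; 1.43-fold lower; adjusted p = 0.0467 by limma). Mef2c no longer passed when T2 (adjusted p = 0.225) or T3 (0.243) was left out, when arrays were median centred (0.0654) or when they were scaled too (0.0541). Neither of its 2 spots passed alone (adjusted p = 0.0521 for both). The related Mef2a had -0.07 ± 0.01 and the coactivator Ep300 -0.26 ± 0.10.

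The Klf2 target S1pr1, the receptor that lets lymphocytes leave tissues, stood at -0.51 on T1, -0.87 on T2 and -0.42 on T3. It was 1.52-fold lower (-0.60 ± 0.24; adjusted p = 0.044), a mean close to the -0.61 of Klf2. S1pr1 no longer passed when T2 (adjusted p = 0.213) or T3 (0.221) was left out or when arrays were median centred (0.059), and 1 of its 2 spots passed alone. It was the single gene of the lymphocyte trafficking list to pass, of 8 measured and 18 listed, with 0 higher and 7 that did not pass. The share of all genes that passed as lower was 3.24%. The integrins Itgal (-0.21 ± 0.42), Itgb2 (-0.18 ± 0.49) and Itgb7 (-0.20 ± 0.39) were above 0 on T1 and below 0 on T2 and T3, and without T1 these 3 passed as lower with S1pr1. The chemokine receptor Ccr9 had 0.35 ± 0.22 (adjusted p = 0.108).

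Other Krüppel-like factors had ratios near 0. Of 16 listed 4 were measured, 0 passed by limma in either direction, with 0 at an unadjusted p under 0.05, and all 4 means were above 0: Klf6 0.10 ± 0.25, Klf7 0.06 ± 0.24, Klf9 0.16 ± 0.21 and Klf10 0.12 ± 0.03. On single arrays 3 of these 4, Klf6, Klf7 and Klf9, were below 0 on T2. The difference from Klf2 was not tested.

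**Figure D3:**
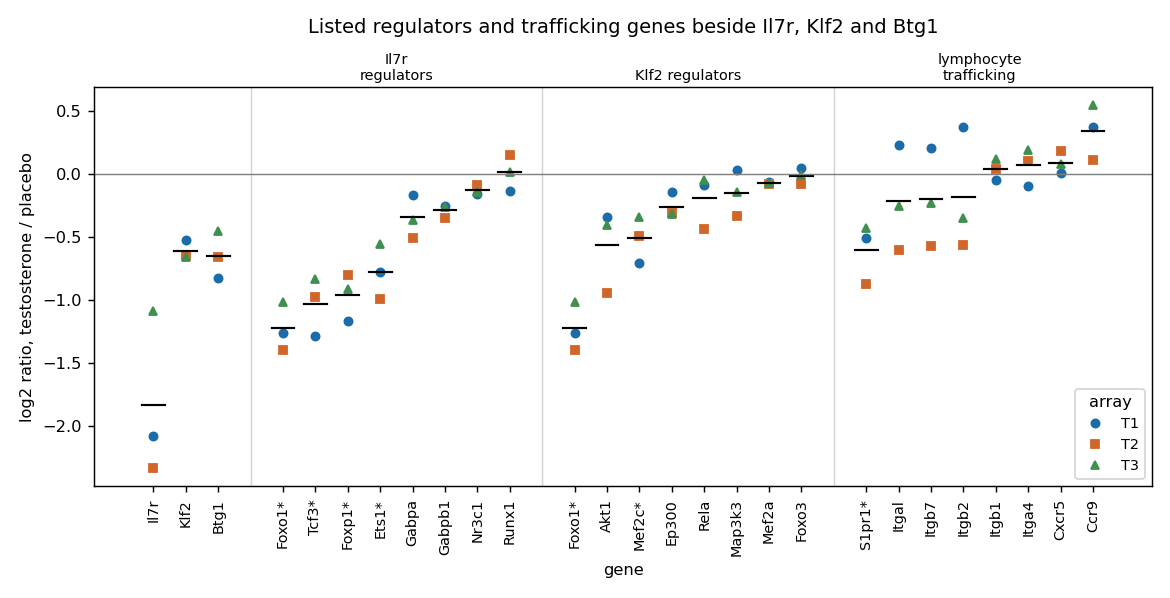
Log2 ratio of testosterone to placebo (vertical axis) on T1, T2 and T3 for Il7r, Klf2 and Btg1 and for each measured gene (horizontal axis) of the lists of Il7r regulators, Klf2 regulators and lymphocyte trafficking; lines are means over the 3 arrays and asterisks mark genes with adjusted p under 0.05. Foxo1, Tcf3, Foxp1 and Ets1 lie below 0 on every array, and S1pr1 is the single trafficking gene that passed.

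Among the partners of Btg1, 15 of 24 listed genes of the BTG family and the deadenylases were measured. Of these 1 passed as lower (3.24% of all genes did), 0 as higher and 14 did not pass (median -0.11). The 1 was Cnot2, a scaffold subunit of the deadenylase complex, at -0.36, -0.44 and -0.54 (-0.44 ± 0.09; 1.36-fold lower; adjusted p = 0.0487). Cnot2 no longer passed when T2 (adjusted p = 0.223) or T3 (0.29) was left out, when arrays were median centred (0.0654) and when spots valued on 2 arrays also entered (0.0517), and neither of its 2 spots passed alone. The catalytic subunits Cnot7, which Btg1 binds, and Cnot8 had -0.06 ± 0.07 and -0.28 ± 0.20. Tob2, the one relative of Btg1 measured, had 0.15 ± 0.17, and Prmt1, a methyltransferase that binds Btg1, -0.28 ± 0.12 (adjusted p = 0.127).

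A wider list of quiescence genes and cell cycle brakes was mixed. Of 34 listed 14 were measured, of which 2 passed as lower (Foxo1 and Foxp1), 1 as higher and 11 did not pass, with a median of -0.01. Over all genes 3.24% passed as lower and 1.68% as higher. The 1 higher gene was Pdcd4, an inhibitor of translation, at 0.39, 0.68 and 0.64 (0.57 ± 0.16; 1.48-fold higher; adjusted p = 0.0385), which no longer passed when T2 (adjusted p = 0.213) or T3 (0.273) was left out or when arrays were median centred (0.0525). Foxo3 had -0.01 ± 0.06, the cyclin-dependent kinase inhibitor Cdkn1b 0.01 ± 0.20 and the retinoblastoma gene Rb1 0.02 ± 0.11. For this reason Il7r, Klf2 and Btg1 are described by name and not as a quiescence programme. Of 21 measured cell cycle genes 0 passed by limma in either direction and 6 had an unadjusted p under 0.05 (median -0.10), a share of 28.6% against 28.1% of all genes. Bub1 at 0.63 ± 0.43 and Cenpa at 0.41 ± 0.15 had the smallest p. Both passed as higher when T1 was left out, when arrays were scaled and with a dye term. Neither passed when T2 or T3 was left out. The 2 spots of Cenpa lay apart, with means of 0.11 and 0.70. Mcm3 passed as lower without T1 and with a dye term.

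Markers of the B lineage were lower beside Il7r, Klf2 and Btg1. Of 27 listed 12 were on the array and 8 measured, of which 6 passed as lower and 2, Ms4a1 and Btk, did not. Over all genes 3.24% passed as lower. The same 6 passed without any single array. They were Vpreb3 (-2.98 ± 0.66), Fcrla (-2.51 ± 0.22), Bach2 (-2.47 ± 0.28), the receptor chain Cd79b (-2.11 ± 0.14), Pou2af1 (-2.07 ± 0.42) and the kinase Blk (-1.56 ± 0.08; SD, n = 3). The list's median was -2.27 (T1), -2.16 (T2) and -1.81 (T3). On T1 and T2, Il7r lay between the lowest and the highest of the 6 markers that passed. On T3, at -1.09, Il7r was closer to 0 than all 6, of which Blk was the closest at -1.54. By their means, Klf2 and Btg1 lay between the 6 markers that passed and the 2 that did not. Vpreb3, a partner of the precursor B-cell receptor, had -3.35, -3.37 and -2.21. As in Il7r, the T3 ratio was the closest to 0 in each of the 6 but Blk. Blk was closest to 0 on T2 (-1.485). The part of the B-lineage markers in the ratios of the 3 genes was not tested.

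Other lymphocytes were barely covered. Of 26 listed T-lineage markers 11 were on the array and 1 was measured, Cd27, a costimulatory receptor (0.83 ± 0.57, adjusted p = 0.0515). Cd27 passed as higher without T1 (0.00686) and without T3 (0.0414), but not without T2 (0.266). Of 16 markers of natural killer and innate lymphoid cells 4 were on the array and 0 had a value on all arrays. In a tissue that also holds vessels, 7 of 20 endothelial markers were measured. Ets1, which lymphocytes also express, passed as lower, as 3.24% of all genes did. The other 6 did not pass, among them Nos3 (-0.07 ± 0.08), Thbd (-0.30 ± 0.53) and Kdr (-0.25 ± 0.26), all known in endothelium with Klf2, and Sox17 (0.30 ± 0.05).

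Of the measured markers of myeloid and red cells 0 passed by limma, and those with an unadjusted p under 0.05 were 3 of monocytes and macrophages, 0 of neutrophils and 1 of red cells, where 28.1% of all genes had one. Without T1, Ccr2 and Mmp9 passed as lower and Hbb-b1 and Prdx2 as higher. None of these markers passed without T2 or without T3. For 7 monocyte and macrophage markers the medians were 0.30 (T1), 0.00 (T2) and 0.12 (T3), with Mertk at 0.33 ± 0.09 and Cd163 at 0.33 ± 0.18. For 6 neutrophil markers they were 0.60, 0.06 and -0.15, with Itgam at 0.33 ± 0.42 and Mmp8 at 0.22 ± 0.33. For 5 erythroid markers they were 0.10, 0.38 and 0.18, with Hbb-b1 at 0.35 ± 0.23 and Prdx2 at 0.28 ± 0.26. For 10 immediate early genes, which many stimuli induce within minutes, they were 0.00, 1.19 and 0.97, with Fos at 2.18 ± 1.97 and Dusp1 at 1.09 ± 0.82. Of the 10, limma passed 0, and the unadjusted p was under 0.05 for 7, or 70.0% against 28.1% of all genes. Without T1, 6 of the 10 passed as higher (Dusp1, Egr1, Fos, Fosl2, Jun and Junb), with a dye term 3 and after scaling 1. Without T2 or without T3, 0 passed. On the same arrays Klf2 stood between -0.66 and -0.53, or between -2.03 and -1.32 in units of the SD over all spots of the array. The part of these cell types and responses in the ratios of Il7r, Klf2 and Btg1 was not tested.

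**Figure D4:**
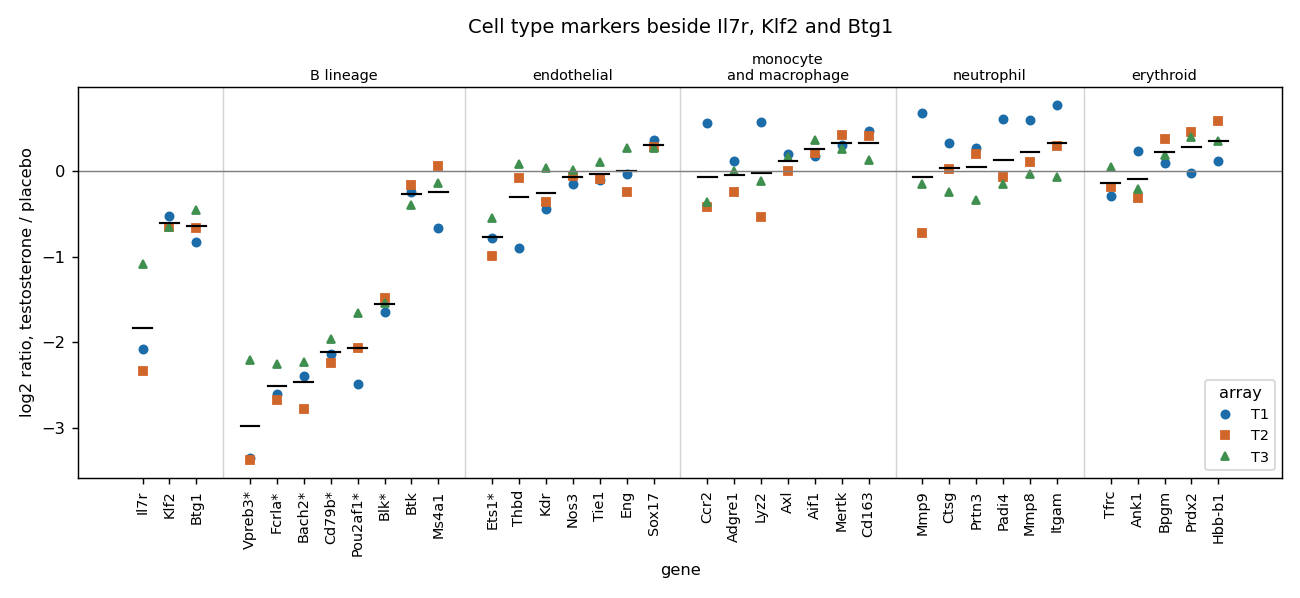
Log2 ratio of testosterone to placebo (vertical axis) on T1, T2 and T3 for Il7r, Klf2 and Btg1 and for each measured marker (horizontal axis) of 5 cell types; lines are means over the 3 arrays and asterisks mark genes with adjusted p under 0.05. B-lineage markers reach -3.37, and the ratios of the neutrophil markers are higher on T1 than on T3.

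The genes whose ratios lay nearest to each of the 3 genes were found by Euclidean distance over the 3 arrays. Nearest to Il7r were the kinase Sbk1 (distance 0.67), the B-cell coactivator Pou2af1 (0.74), the progenitor factor Sox4 (0.84), the B-cell receptor chain Cd79b (0.88) and the chromatin protein Cecr2 (0.89), against a median of 3.20 over all other genes. Each of them had a T2 ratio closer to 0 than Il7r. Nearest to Klf2 were the serine synthesis enzyme Psat1 (0.09), the sulfotransferase Chst15 (0.09), D17H6S56E-5 (0.14), the glycosyltransferase B3gnt2 (0.17) and the kinase Map3k1 (0.18), against a median of 0.99. Nearest to Btg1 were the corepressor Rere (0.05), with -0.78, -0.66 and -0.48 on the 3 arrays, Ahdc1 (0.09), the nuclear membrane protein Nrm (0.14), the NF-kappaB inhibitor Nfkbie (0.21) and the valine enzyme Hibadh (0.22), against a median of 1.08. No gene was nearest to more than 1 of the 3.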

How the data were processed

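Marrow RNA from 3 mouse pairs was measured on 3 arrays. The authors deposited 1 signed log ratio per spot and array, read here as log2; its base, numerator and scaling: not given in the sources used here. The array has 11552 spots, of which T1 gave values for 9007, T2 for 6771 and T3 for 6982; spot brightness was not analysed here. Values were used as deposited, T2 unturned because all arrays correlated positively. Spots were named through Entrez IDs and the RefSeq table of GRCm38.p6 (7880 of 8050 spots with 1 gene), and 12 control spots were left out.

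Complete spots, and means over the spots of each gene, were tested against 0 in R 4.3.3 by limma 3.58.1 (lmFit, eBayes, Benjamini-Hochberg, threshold 0.05), a procedure tested on simulated data. The simulated spots had independent normal noise on each array, so shared shifts and unequal spread of the real arrays were not covered. Nothing says how the pairs were kept apart, so p-values refer to these 3 pairs alone. They rest on the spread between the pairs, which eBayes moderates toward the spread over all spots or genes tested. The 3 genes and the 17 lists were chosen with earlier results of these data known. Named are the 3 genes, list genes that passed, the 2 of smallest p in lists with fewer than 2, and the 5 nearest genes to each; other list genes were chosen after their values were seen, for their role.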

Additional observations from a re-analysis of the deposited data

How the results depend on the processing

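The mean ratios of the 3 genes stayed below 0 in every alternative run made for them. If T2, the array of opposite dyes, had its sign turned, the mean was -0.28 for Il7r, -0.18 for Klf2 and -0.21 for Btg1. In that run the T2 ratios themselves were above 0, so these means join ratios of opposite sign. Leaving out 1 array gave -2.21 to -1.59 for Il7r, -0.65 to -0.59 for Klf2 and -0.74 to -0.56 for Btg1. Centring and scaling moved each mean by less than its SD. The median over spots could change Btg1 alone, to -0.66, since Il7r and Klf2 had 1 spot each. The use of every spot could change no mean, since all 5 spots of these genes had a value on all 3 arrays. Spots that passed numbered 171 as reported, 0 with T2 turned (20 with an unadjusted p under 0.05), 38 to 1095 without 1 array, 56 after median centring, 670 after centring and scaling, 1309 with a dye term and 1165 at a threshold of 0.10. Genes that passed numbered 170, then 0 with T2 turned, 33 to 623 without 1 array, 63, 263, 385 and 498. Of 14 list genes that passed, 8 passed without each single array; counts of lists under the alternatives were added after seeing the data. The cause of these shifts was not tested, and 3 pairs limit the precision. The fit of within-pair ratios against 0 is itself paired.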

Other observations

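Some listed genes had a value on fewer than 3 arrays and entered no test. Lef1, a factor of T-cell and early B-cell development, had -1.72 on T1 and -1.32 on T2. Both were closer to 0 than Il7r on the same arrays (-2.08 and -2.34). Ccr7, a homing receptor that Klf2 is known to influence, had -1.06 on T1 alone. The B-cell coreceptor Cd22 had -0.86 and -0.60 at 2 spots on T1, and the adaptor Blnk -0.50 on T1 and -0.87 on T2. The mature B-cell receptors Cr2 (-0.12 on T1, 0.01 on T3) and Fcer2a (0.00 and 0.01 at 2 spots on T1, -0.30 and -0.50 on T3) were near 0 on T1. Il7, the ligand of the receptor, had 0.27 and 0.22 at 2 spots on T1 alone, and the feedback inhibitors Socs1 and Cish had -0.38 and -0.13 there. The T-cell genes Cd247 (-0.16 on T1 and -0.45 on T2) and Cd4 (-0.35 on T1) were below 0, while on T1 Zap70 (0.04), Thy1 (0.13), Ctla4 (0.58) and Gata3 (0.15 and 0.86 at 2 spots) were above 0, so the T-cell genes were mixed in sign. Ikzf1, a lymphoid zinc finger factor and listed regulator of Il7r, had 0.51 on T1, opposite in sign to Il7r there.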
